A study of Saccharomyces cerevisiae with 2 samples.

Results

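The pheromone response genes described here are the 10 that carry the mating signal of budding yeast (Saccharomyces cerevisiae) from the G protein to the nucleus. They are GPA1, STE4 and STE18 for the G protein, STE20, STE5, STE11, STE7 and FUS3 for the kinase cascade, and STE12 and FAR1 for its nuclear outputs. They were found by gene symbol in the platform annotation, which named 5656 genes through probe sets with a single symbol, and 10 of the 10 were measured. For a gene with several probe sets, the values are those of the brightest by mean log2 signal.

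The 2 samples were replicates 1 and 2 of a yeast strain making histone H3 with arginine at lysines 4, 36 and 79 (H3 K4,36,79R). Cells grew in selective medium with galactose, where a wild-type H3 gene was active as well, and were next kept for 18 hours in selective medium with glucose, which shut that gene off. Both samples therefore carried the same mutant histone, medium and time, and no wild-type or earlier sample was analysed here. The design text calls the replicates separate cultures, while the strain background, its mating type and any pheromone treatment are not stated in the labels. The values thus show transcript signals in the mutant and their spread between 2 arrays, and not a change caused by the mutation. In these bulk cultures, fewer cells making a transcript and less of it per cell cannot be told apart.

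The pathway lets haploid cells of opposite mating type find each other. Pheromone from the partner binds a receptor, the G protein releases its beta-gamma part, and this recruits a scaffold and starts a chain of kinases that ends in a MAP kinase. The MAP kinase frees the transcription factor Ste12 from its inhibitors, so that mating genes are transcribed, and acts on Far1, which holds the cell in G1 and guides growth toward the partner. Several of the 10 genes, GPA1, STE4, STE18, STE5, FUS3 and FAR1 among them, are known to be transcribed in haploid cells and repressed in a/alpha diploids.

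All signals are deposited MAS5 values in arbitrary units, 1 array per culture, and signals of different probe sets are not on a common scale, so no gene's level was read as higher or lower than another's. Across genes, signals served to count those above a level, to leave out dim genes and to group probe sets of a like signal. They also served to choose which genes to name and to sum marker lists. The arrays were alike in brightness, with a median of 25.5 on replicate 1 and 25.7 on replicate 2 over 9335 probe sets, and Pearson's r of log2 signal was 0.983 across the 9290 probe sets above 0 on both, which are not independent replicates. Differences are given as log2 signal of replicate 2 minus replicate 1, and have no test, since 1 array stood on each side. Each was read against the SD of the same difference over all yeast probe sets of a like signal, in bands that double. That SD was 0.22 between signals of 16 and 32, 0.18 between 32 and 64, and 0.16 between 64 and 128, the 3 bands that hold the 10 genes.

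All 10 genes gave signals above background on both arrays, and their signals agreed within 1.21-fold. Background was set from 13 probe sets with no yeast target (mouse genes and bacterial antisense strands) at their 95th percentile, 1.86 on replicate 1 and 1.69 on replicate 2. It was exceeded by 98.7% of the 5656 genes, so that passing it says little about any of them. With a stricter level of 20 on both arrays, which 72.8% of genes passed, 10 of the 10 were still counted. Between the arrays, 0 of the 10 differed by more than 1.5-fold, against 2.16% of all genes and 0.684% of the 4241 genes whose signals averaged 20 or more. At 1.2-fold, FUS3 was counted and the other 9 were not, where 15.4% of all genes passed. Replicate 2 was the higher array for 5 genes and the lower for 5, while 56.4% of all genes were higher and 43.6% lower on replicate 2. The median log2 difference was 0.01 over the 10 genes and 0.03 over all genes. It was -0.01 after centring each array on its median, so its direction is not settled.

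**Figure D1:**
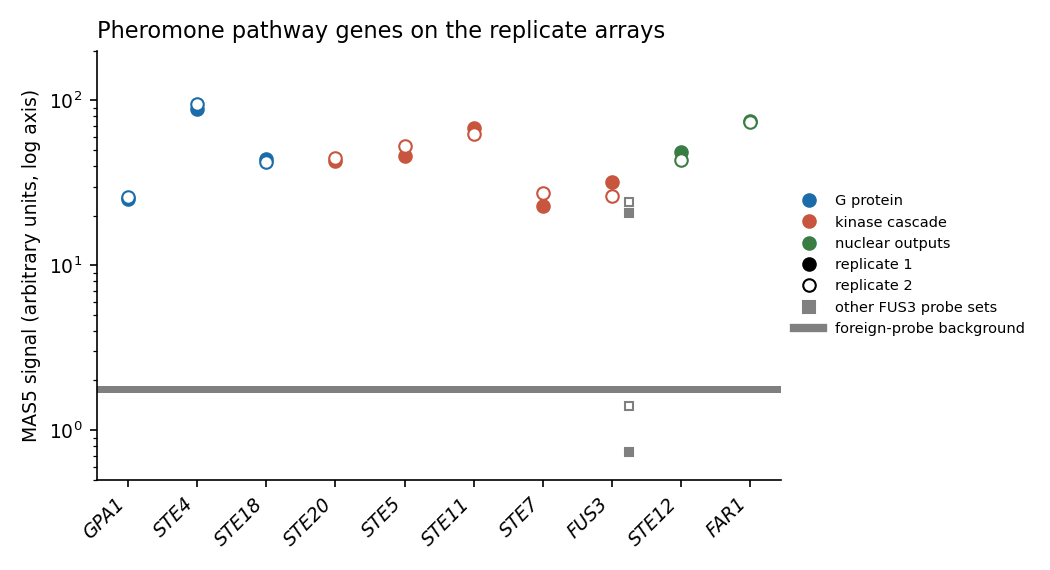
MAS5 signal (arbitrary units, log axis) of the 10 genes on replicate 1 (filled) and replicate 2 (open), coloured by role, with the other FUS3 probe sets in grey squares and the foreign-probe background as a band. The 10 genes sit between 23.0 and 95.1 on the separate arrays, far above the background of 1.69 to 1.86, and positions of different genes are not comparable.

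The G protein genes differed by at most 1.08-fold between the cultures. GPA1, which encodes the alpha subunit that binds GTP and keeps the beta-gamma part inactive in resting cells, gave 25.3 on replicate 1 and 25.9 on replicate 2 (25.6 ± 0.446, SD, n = 2). These signals were 1.02-fold apart. STE4, for the beta subunit, which passes the signal on once released, gave 88.1 and 95.1 (91.6 ± 4.90), 1.08-fold higher on replicate 2. STE18, for the gamma subunit that anchors the beta subunit at the plasma membrane through its lipid tail, gave 43.9 and 42.4 (43.1 ± 1.11), with replicate 2 the lower by 1.04-fold. The log2 differences of GPA1, STE4 and STE18 were 0.04, 0.11 and -0.05, each smaller than the SD of its signal band. Only 25.4% of all genes reached that SD, so lying within it does not set these genes apart. The subunits did not share a direction.

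The kinase cascade held the 3 genes of the 10 with the widest differences between the arrays, FUS3, STE7 and STE5, as deposited. With the median of neighbouring probe sets taken off, STE12 was the widest of the 10, at -0.27. STE20, the PAK-family kinase that is brought to the beta-gamma part and phosphorylates Ste11, gave 42.8 and 44.4 (43.6 ± 1.11), 1.04-fold apart. STE5, the scaffold that holds the kinases together and carries them to the membrane, gave 46.2 and 53.1 (49.7 ± 4.85). Its log2 difference of 0.20 was 1.11 times the SD of its band. STE11, the MAP kinase kinase kinase, which also serves the osmotic stress and filamentous growth pathways, gave 67.9 and 62.1 (65.0 ± 4.08), lower on replicate 2 with a log2 difference of -0.13. STE7, the MAP kinase kinase that phosphorylates Fus3 and Kss1, gave 23.0 and 27.3 (25.1 ± 2.998). Replicate 2 was 1.18-fold the higher for STE7, 1.10 times the SD of its band.

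FUS3, the MAP kinase of mating, was the 1 gene of the 10 with several probe sets, and they did not run the same way. The brightest gave 32.0 and 26.4 (29.2 ± 3.93), 1.21-fold lower on replicate 2, with a log2 difference of -0.28. The second gave 20.8 and 24.1 (22.4 ± 2.38), 1.16-fold higher on replicate 2, with a log2 difference of 0.22. The third gave 0.734 and 1.41 and was under background on both arrays, so it carries no usable level. Both usable probe sets lay near 1 SD of their band (0.22) in opposite directions, and the direction of the FUS3 difference therefore depends on which of them is read. The remaining 9 genes had 1 probe set each, so the like check could not be made for them.

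The nuclear outputs were both slightly lower on replicate 2. STE12, the transcription factor that binds pheromone response elements in mating gene promoters, gave 48.4 and 43.6 (46.0 ± 3.37), 1.11-fold apart with a log2 difference of -0.15. FAR1, the inhibitor of the G1 cyclin kinase and adaptor for oriented growth, gave 74.9 and 73.9 (74.4 ± 0.686), 1.01-fold apart. Both differences were within the SD of their bands as deposited. With the median of neighbouring probe sets taken off, STE12 had -0.27, beyond the SD of its band (0.18). As deposited, 7 of the 10 genes lay within the SD of their bands, and the 3 outside it were STE5, STE7 and FUS3, at 1.10 to 1.24 times the SD. Among all genes, 25.4% reached the SD of their band, so a share of 3 in 10 is near the background.

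**Figure D2:**
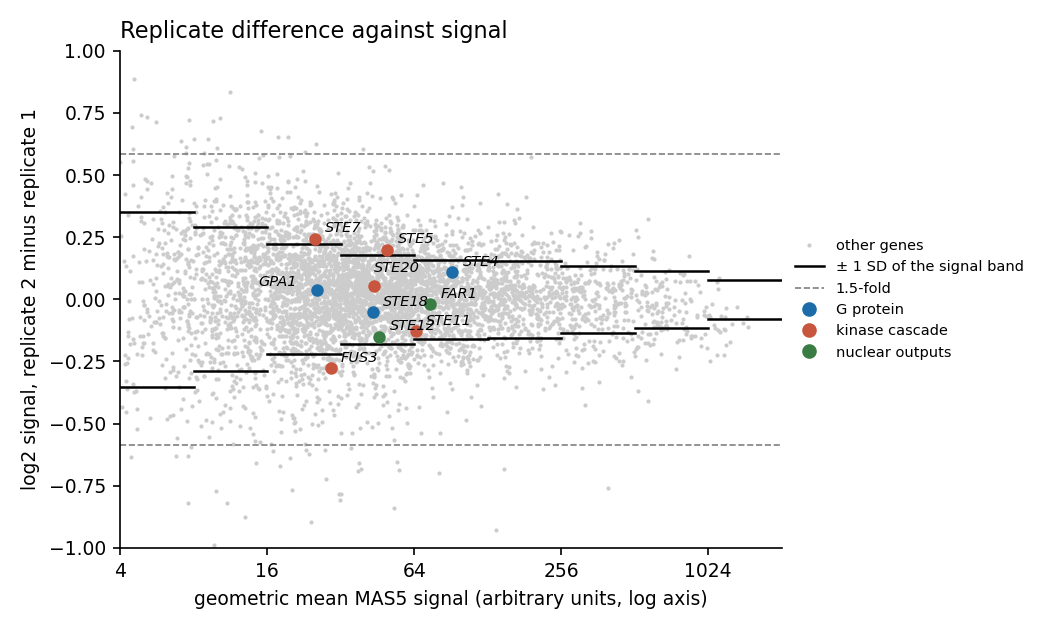
Log2 signal of replicate 2 minus replicate 1 against the geometric mean MAS5 signal (arbitrary units, log axis) for genes within the plotted ranges (grey) and the 10 pathway genes (coloured by role), with 1 SD of each signal band as bars and 1.5-fold as dashed lines. The 10 genes lie between -0.28 (FUS3) and 0.24 (STE7), inside the 1.5-fold lines.

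A further 57 genes of the pathway and its surroundings were measured, of 57 listed. On both arrays, 57 exceeded background, as did 98.7% of all genes. Of the 57, 1 differed by more than 1.5-fold, where 2.16% of all genes did. Their median log2 difference was 0.02, with 30 genes higher and 27 lower on replicate 2, where 56.4% of all genes were higher. The direction of this balance is not settled, since 26 were higher and 30 lower after quantile normalization, and 25 and 32 after loess, which put the median at -0.02. The 10 genes above, with a range from -0.28 to 0.24, lay inside the range of these 57, from -0.61 to 0.31. A range widens with the number of genes, and the lower end was STE50 alone, so this says little about the 10.

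Upstream of the G protein, the receptor and pheromone genes differ by mating type. STE2, the receptor of a cells for alpha factor, gave 70.8 and 74.2 (72.5 ± 2.35), and STE3, the receptor of alpha cells for a-factor, gave 7.18 and 7.97 (7.58 ± 0.559). Of the a-factor genes, MFA1 gave 408.7 and 324.4 (366.5 ± 59.6), lower on replicate 2 with a log2 difference of -0.33, against an SD of 0.13 in its signal band. These MFA1 values are from the brightest of its 2 probe sets, and the mean of both had a log2 difference of -0.23. The suffix of the brightest marks a kind that can match several transcripts of a family. MFA2 gave 330.3 and 310.6 (320.5 ± 13.9). The alpha-factor genes MF(ALPHA)1 and MF(ALPHA)2 gave 19.4 and 22.7 (21.1 ± 2.31) and 9.59 and 11.9 (10.7 ± 1.62). Because probe sets differ in affinity, these levels do not by themselves assign a mating type.

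As a check of the cell state, 7 of 7 a-cell genes, 4 of 4 alpha-cell genes and 6 of 6 haploid genes outside the 10 were above background, and 0 of the genes in these lists were listed at 0. Since 98.7% of all genes passed the same background and 0 of the 5656 were listed at 0, these counts do not tell the cell states apart. Summed signals were 1093 on replicate 1 and 998.0 on replicate 2 for the a-cell genes, 131.6 and 134.6 for the alpha-cell genes, and 306.0 and 330.0 for the haploid genes. Within these lists, the alpha-cell gene SAG1 gave 95.4 and 92.0, and the a-cell gene ASG7 gave 11.1 and 8.86. Both were added after their values were seen. The 8 sporulation genes, markers of a diploid programme, were also above background, with sums of 108.2 and 107.7. A sum over probe sets that differ in affinity is set by the brightest of them and is given as a description. Whether any of these lists took part in the differences of the 10 genes was not tested.

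Among the partners of the kinase cascade, STE50, the adaptor that binds Ste11, was the 1 gene of the 57 beyond 1.5-fold. It gave 20.9 on replicate 1 and 13.7 on replicate 2 (17.3 ± 5.10), with a log2 difference of -0.61 against an SD of 0.22 in its band. The kinase it binds, STE11, was also lower on replicate 2, but by -0.13, within its own SD. CDC42, the small GTPase that activates Ste20, gave 304.0 and 283.4 (293.7 ± 14.6), CDC24, its exchange factor, 17.0 and 19.2 (18.1 ± 1.55), and BEM1, a polarity scaffold, 25.7 and 26.0 (25.8 ± 0.223). KSS1, the MAP kinase that stands beside Fus3 and acts in filamentous growth, was not among the genes chosen by signal in that list but is the closest partner of FUS3, and was added after its values were seen. It gave 13.2 and 12.8 (13.02 ± 0.277).

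The regulators of Ste12 were measured on both arrays without a difference beyond 1.5-fold, which 2.16% of all genes showed. DIG1, an inhibitor of Ste12, gave 65.0 and 69.2 (67.1 ± 3.005). TEC1, the partner of Ste12 at filamentous growth genes, gave 110.3 and 92.2 (101.2 ± 12.8), and MCM1, the MADS-box factor that acts with Ste12 at a-specific genes, gave 66.2 and 57.9 (62.1 ± 5.84). TEC1 and MCM1 were lower on replicate 2, with log2 differences of -0.26 and -0.19, beyond the SD of their bands (0.16 and 0.18). Among all genes, 25.4% reached the SD of their band. With the median of neighbouring probe sets taken off, TEC1 had -0.20 and MCM1 had -0.14, the latter inside its SD. STE12 was also lower, within the SD of its band as deposited (-0.15) and beyond it with the neighbours' median taken off (-0.27). The list as a whole had 2 genes higher and 3 lower on replicate 2 and a median of -0.01, where 56.4% of all genes were higher.

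Among the 6 genes that dampen the response, 0 differed by more than 1.5-fold, against 2.16% of all genes. PTP2, a tyrosine phosphatase of MAP kinases, read from the brightest of its 5 probe sets, gave 106.9 and 108.5 (107.7 ± 1.09). Its log2 difference was 0.02 from that probe set and -0.31 from the mean of all 5, so its direction depends on which are read. BAR1, a secreted protease that cleaves alpha factor, gave 108.3 and 107.0 (107.6 ± 0.938), and MSG5, a phosphatase of Fus3, gave 32.4 and 34.6 (33.5 ± 1.52). In this list, 3 genes were higher and 3 lower on replicate 2, where 56.4% of all genes were higher.

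Transcripts that pheromone induces serve as a readout of the pathway. Whether each gene listed here answers to Ste12, or to Ste12 alone, was not tested. All 14 were above background, as were 98.7% of all genes, and 0 differed by more than 1.5-fold, against 2.16% of all genes. On replicate 2, 9 were higher and 5 lower, where 56.4% of all genes were higher. The median log2 difference of the 14 was 0.02. This balance too turned with the scaling, to 6 higher and 7 lower after quantile normalization and to 6 and 8 after loess (median -0.01). The genes named by their signal were PRM5, a pheromone-regulated membrane protein, with 135.9 and 140.5 (138.2 ± 3.29), AGA1, the anchor subunit of a-agglutinin, with 92.4 and 87.4 (89.9 ± 3.52), and FIG2, a cell wall adhesin, with 66.7 and 67.8 (67.3 ± 0.749). FUS1, a membrane protein of cell fusion whose promoter is widely used to report pathway activity, was added after its values were seen. It gave 13.9 and 13.8 (13.9 ± 0.0959). Mean signals in this list ran from 6.40 to 138.2. Without pheromone-treated or wild-type arrays, these signals do not say whether the pathway was active.

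The partners of Far1 in the arrest are the kinase Cdc28 and the G1 cyclins. CDC28 gave 78.7 and 94.1 (86.4 ± 10.9), higher on replicate 2 with a log2 difference of 0.26, beyond the SD of its band (0.16). The SD of the band was reached by 25.4% of all genes. CLN2 gave 35.5 and 34.5 (35.0 ± 0.740) and CLN1 gave 31.5 and 30.4 (30.9 ± 0.760). FAR1 itself had a log2 difference of -0.02, and CLN1 and CLN2 had -0.05 and -0.04. Of the 3 partners, 0 were beyond 1.5-fold, against 2.16% of all genes.

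Pheromone processing and export was measured through 10 genes, with 6 higher and 4 lower on replicate 2, and 5 and 5 after loess. As deposited, 56.4% of all genes were higher on replicate 2. Of these 10 export and processing genes, 0 differed by more than 1.5-fold as deposited, against 2.16% of all genes. STE24, the protease of a-factor maturation, gave 179.6 and 174.8 (177.2 ± 3.38), STE13, the aminopeptidase of alpha-factor maturation, gave 60.6 and 66.4 (63.5 ± 4.17), and STE6, the a-factor exporter, gave 57.2 and 69.3 (63.3 ± 8.56). STE23, a protease that can take part in a-factor maturation, was just inside 1.5-fold and is named after its values were seen. It gave 64.5 and 43.5 (54.0 ± 14.8), with a log2 difference of -0.57 that passed 1.5-fold after loess scaling (-0.59). The deposited difference was 3.16 times the SD of its band (0.18), where that of STE50 was 2.75 times its own. STE6 had a log2 difference of 0.28, also beyond the SD of its band (0.18), which 25.4% of all genes reached.

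The high-osmolarity pathway shares Ste20, Ste11 and Ste50 with the mating pathway. Its 8 genes had a median log2 difference of -0.03, with 3 higher and 5 lower on replicate 2, and 0.01, with 4 and 4, once the median of neighbouring probe sets was taken off. HOG1, its MAP kinase, gave 168.8 and 166.0 (167.4 ± 1.93). YPD1, the phosphorelay protein, gave 73.3 and 75.4 (74.3 ± 1.42), and SLN1, the osmosensor, gave 66.7 and 65.5 (66.1 ± 0.872). Of the shared genes, STE11 and STE20 lay within the SD of their bands and STE50 lay beyond it, as given above. As deposited, 0 of the 8 genes were beyond 1.5-fold, against 2.16% of all genes, and 56.4% of all genes were higher on replicate 2.

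**Figure D3:**
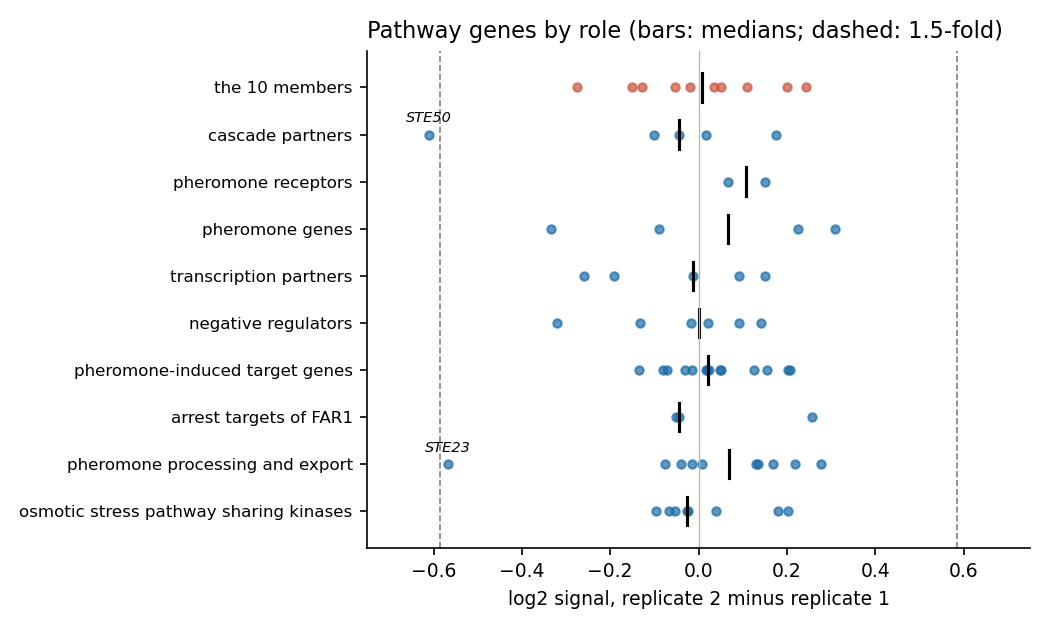
Log2 signal of replicate 2 minus replicate 1 for the 10 genes (red) and the 57 other pathway genes by list (blue), each point 1 gene, with the list median as a bar and 1.5-fold as dashed lines. STE50 (-0.61) lies outside the dashed lines and STE23 (-0.57) just inside, and the other genes spread on both sides of 0.

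Probe set numbers on this array group genes by chromosome for the most part: 97.1% of the 6496 consecutive pairs of single-gene probe sets lay on the same chromosome. Whether the numbers follow the gene order within a chromosome was not tested. Each gene's difference was set beside that of its neighbours by number. Whether neighbours vary together beyond the spread of single probe sets was not tested. The median difference of the 20 neighbours of a probe set (10 on each side) had a 5th percentile of -0.14 and a 95th of 0.16 over 9230 probe sets. Around the 10 genes it ran from -0.09 for FUS3 to 0.15 for STE4. For STE4 the neighbours were higher by 0.15 where the gene was higher by 0.11, and for STE20 the values were 0.14 and 0.05. STE12 had -0.15 among neighbours at 0.12. After the neighbours' median was taken off, STE5 had 0.17, STE7 had 0.14, FUS3 had -0.18 and STE12 had -0.27, and the signs of STE4 (-0.04) and STE20 (-0.08) turned. STE50 and STE23 had neighbours at -0.06 and -0.02 and stayed low, at -0.55 each.

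**Figure D4:**
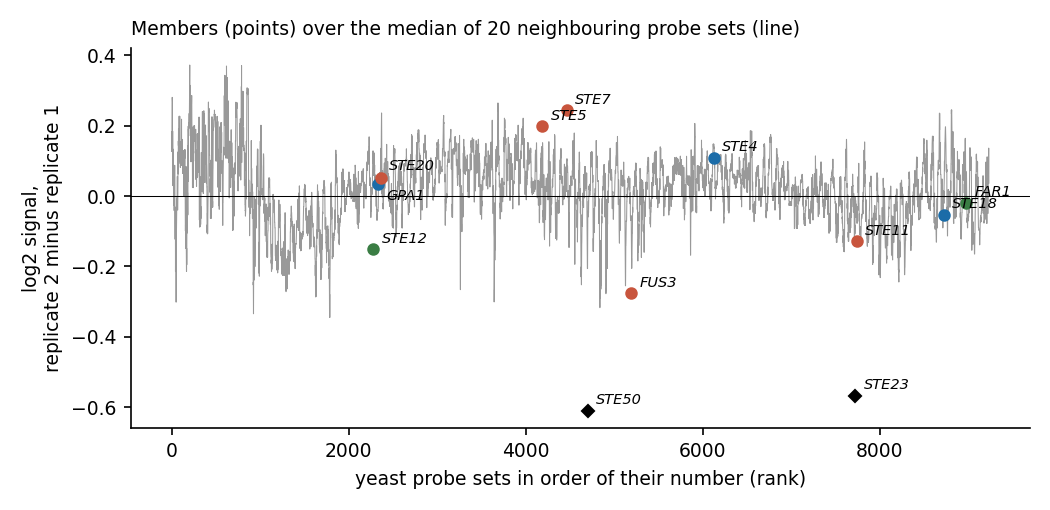
Log2 signal of replicate 2 minus replicate 1 for the 10 genes (points, coloured by role as above), STE50 and STE23 (black diamonds), over the median of the same difference in 20 neighbouring probe sets (grey line), against the rank of the probe set number. STE12 (-0.15) and FUS3 (-0.28) lie below the median of their neighbours (0.12 and -0.09), and STE5 and STE7 lie above it.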

How the data were processed

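Per the submitters' processing notes, the authors used MAS5, and the deposited table holds its intensity on a linear scale for every probe set of each array. MAS5 subtracts mismatch from perfect-match signal and scales each array. Version and scaling target are not stated in the labels, and detection calls were not used. About 20 µg of total RNA from cells at an OD600 of 0.5 to 0.7 gave the biotin-labelled cRNA, per the labels' protocols. Of 9335 probe sets, 6504 had 1 gene symbol in the platform annotation, 328 several and 2503 none; 6504 matched RefSeq (assembly R64) by gene ID.

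Signals were taken as log2 as deposited, with Python 3.11.15, pandas 2.3.3 and statsmodels 0.14.6 (loess, span 0.3), and the procedures were tested on simulated data. The foreign probe sets were 4 for mouse genes and 9 for bacterial antisense strands. The text names the 10 genes, every receptor and pheromone gene, and in each other list the 3 with the highest mean signal and any beyond 1.5-fold, plus the genes marked as added. The members and lists were chosen with earlier results of these data known. Likeness of pattern to other genes was not measured, because 2 arrays of 1 group give 1 difference per gene. Replicate number limits the precision of every value.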

Additional observations from a re-analysis of the deposited data

How the results depend on the processing

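Alternatives were the background level, the scaling (median centring, quantile, loess), an offset of 16, averaging the probe sets of a gene, a filter at a mean signal of 20 and folds of 1.2 and 2, and, chosen after seeing the data, the subtraction of the neighbours' median and the second probe set of FUS3. The count of the 10 genes above background was 10 with each background level, with averaged probe sets and without either array. The 57 other genes above background became 41 with a level of 20, which 72.8% of all genes passed. The count of the 10 genes beyond 1.5-fold was 0 under each scaling, offset and probe set choice, and became 1 (FUS3) at 1.2-fold, where 15.4% of all genes lie. The count of other pathway genes, 1, became 2 with loess, 0 with the offset, with the filter on dim genes (which leaves STE50 out), with the neighbours' median taken off and at 2-fold, and 6 at 1.2-fold. The median log2 difference of the 10 genes ran from -0.07 with the neighbours' median taken off to 0.04 when the probe sets of a gene were averaged or with the second FUS3 probe set. FUS3 had 0.29 and 0.22 under those last settings, and PTP2 had -0.31 with averaged probe sets. The averaged FUS3 value includes its probe set under background on both arrays, whose log2 difference was 0.94. The balance of the 57 other genes turned from 30 higher and 27 lower on replicate 2 to 26 and 30 after quantile normalization (median -0.01), 25 and 32 after loess (-0.02) and 27 and 30 with the neighbours' median taken off (-0.01). No paired analysis was possible because the 2 samples belong to a single group. The direction of the single genes was that of the deposited values for 10 of the 10 under each scaling and the offset, while 1 of the 57 other genes turned after median centring, 3 after quantile normalization (a further 1, PRM3, came to 0) and 5 after loess, and 2 of the 10 (STE4 and STE20) and 11 of the 57 turned when the neighbours' median was taken off. Dimmer signal bands had a wider SD of the log2 difference, 0.35 for STE3 and 0.29 for KSS1 and FUS1, which limits what can be read for these genes.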
